A study of Rattus norvegicus with 9 samples.

Results

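The WNK-SPAK kinase pathway was described here at 6 of its 7 named genes: the kinases Wnk1, Stk39 (SPAK) and Oxsr1 (OSR1), the ubiquitin ligase parts Klhl3 and Cul3, and the thiazide-sensitive NaCl cotransporter Slc12a3. Members were chosen by name in the table of 30315 loci, taking the row with the highest mean where a name repeats. Wnk4 was not analysed here. All 6 were among the 14338 loci whose mean reached 1 FPKM, the minimum for testing. FPKM, a fragment count scaled to library size and transcript length, removes most of the effect of length, so levels of different genes can be set side by side.

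RNA came from the outer medulla of the kidney of 9 rats of the strain MCW SS, a colony of the Dahl salt-sensitive rat, with 1 library per rat and 3 rats in each of 3 groups, all surgically prepared in the same way. HS_DT rats received GapmeRs (antisense oligonucleotides) against Dnmt3a and Tet3 into the kidney, 2 mg/kg of each, on a 4% NaCl diet whose length the labels give as 7 without a unit. HS_SCR rats received a scrambled GapmeR at 4 mg/kg and were fed 4% NaCl for 7 days. The rats labelled 0.4% salt were on 0.4% NaCl and were taken just before GapmeR and high salt would have begun, so that comparisons with them take in diet, oligonucleotide and time together. The tissue was extracted whole, with no sorting of cells. Dnmt3a had 8.72, 10.25 and 11.02 FPKM in HS_DT, 7.05, 5.75 and 10.3 FPKM in HS_SCR, and 13.4, 12.2 and 12.9 FPKM in 0.4% salt. Tet3 had 7.62, 8.54 and 7.92 FPKM in HS_DT, 5.04, 5.47 and 8.20 FPKM in HS_SCR, and 9.38, 8.47 and 9.64 FPKM in 0.4% salt. For neither target was the mean lower in HS_DT than in HS_SCR, and the 2 groups overlapped (exact permutation p = 0.3 for each), so HS_DT and HS_SCR stand here for the labelled treatment and not for a measured knockdown.

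WNK kinases sense intracellular chloride and phosphorylate the related kinases SPAK and OSR1. These in turn phosphorylate and activate the cation-chloride cotransporters, NCC (Slc12a3) in the distal convoluted tubule and NKCC2 (Slc12a1) in the thick ascending limb, the segment that fills much of the outer medulla. KLHL3 carries WNK kinases to a ubiquitin ligase built on CUL3, and human mutations in WNK1, WNK4, KLHL3 or CUL3 cause hypertension with high potassium. Much of this control acts on phosphorylation and protein stability, which RNA levels do not measure.

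Only Oxsr1 among the 6 members was called changed in any comparison of the main fit, which took the 9 libraries without weights. It was higher in HS_SCR than in 0.4% salt, and its level in HS_DT lay near that of 0.4% salt. Stk39, its paralog, had its lowest group mean in HS_DT and its highest in 0.4% salt, with no call. The Stk39 to Oxsr1 ratio was lower in every high-salt library than in every 0.4% salt library. Wnk1, Cul3 and Slc12a3 were not called in any comparison of the main fit. The reading of Klhl3 turned on HS_SCR replicate 3, a library that stood apart from its group in several genes. With library weights, an alternative given near the end, Wnk1, Stk39 and Klhl3 were also called.

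**Figure D1:**
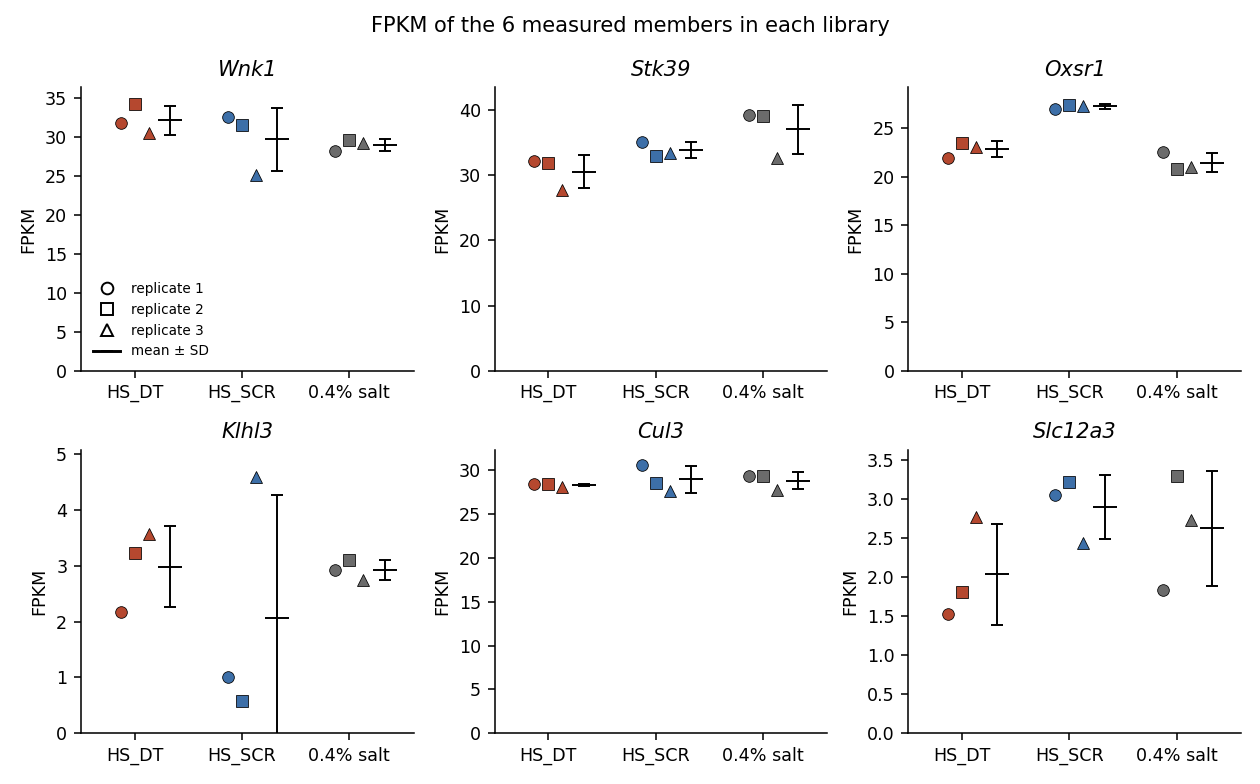
FPKM (y axis, from 0) of each measured member in the 9 libraries, by group, with replicates as symbols and the mean ± SD of n = 3 beside them; the lower SD bar of Klhl3 in HS_SCR runs past 0. The HS_SCR libraries of Oxsr1 sit at 27.0 to 27.4 FPKM, above all others, while HS_SCR replicate 3 of Klhl3 lies at 4.60 FPKM with the other HS_SCR libraries at 1.00 and 0.579.

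Oxsr1 encodes OSR1, the kinase that in mice carries most of the activation of NKCC2 in the thick ascending limb (build rn5, chromosome 8, 127127103 to 127216712). It had 21.9, 23.5 and 23.0 FPKM in HS_DT replicates 1 to 3, 27.0, 27.4 and 27.3 FPKM in HS_SCR, and 22.6, 20.8 and 21.0 FPKM in 0.4% salt. Every HS_SCR library was above every library of the other groups, and HS_DT and 0.4% salt overlapped. Between HS_SCR and 0.4% salt the log2 change of log2(FPKM + 1) was 0.33 ± 0.07 (SE), a 1.26-fold rise, with a limma adjusted p of 0.0200 and an exact permutation p of 0.1, the smallest that 3 against 3 libraries allow. Of all loci tested, 8.2% were called higher in this comparison, 4.88% lower and 13.1% in either direction, so 1 call among 6 members is close to the background. Between HS_DT and HS_SCR it stood at -0.25 ± 0.07 (95% interval -0.40 to -0.09), short of the threshold with a limma adjusted p of 0.123 and an exact permutation p of 0.1. HS_DT differed from 0.4% salt by 0.09 ± 0.07 (-0.07 to 0.24), with a limma adjusted p of 0.821.

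The size of the Oxsr1 difference held while its call did not. The log2 change between HS_SCR and 0.4% salt lay between 0.30 and 0.41 under all 20 alternatives, and 14 of them called it. Several of them could not move it from 0.33 and bear only on its SE and adjusted p. These were the changes of filter, the fit of the 2 groups alone, the replicate block and leaving out an HS_DT library. It was not called without 0.4% salt replicate 1 (limma adjusted p = 0.0564), replicate 2 (0.0879) or replicate 3 (0.0619), without HS_SCR replicate 2 (0.0570), in the fit of the 2 groups alone (0.0724) or when a proximal tubule score per library was added to the model (0.302). The rat numbers in the labels form a lower series (781 to 785) and a higher one (859 to 871), unexplained there, with all 0.4% salt rats and replicate 3 of each high-salt group in the higher. Within the higher series, Oxsr1 was 23.0 FPKM in the HS_DT rat, 27.3 in the HS_SCR rat and 20.8 to 22.6 in 0.4% salt. Within the lower series it was 21.9 and 23.5 FPKM in HS_DT and 27.0 and 27.4 in HS_SCR.

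The loci whose pattern over the 9 libraries was most like that of Oxsr1 were abundant transcripts, ribosomal protein genes among them. Among 9273 single-symbol loci averaging 5 FPKM or more, the highest Pearson correlations of log2(FPKM + 1) were with RGD1562469 (0.993), Rps27a (0.993) and Rpl23 (0.991). The second and the third encode ribosomal proteins, at mean levels of 1137 and 1293 FPKM against 23.8 FPKM for Oxsr1. Rps27a ran from 1002 to 1066 FPKM in HS_DT, 1406 to 1498 in HS_SCR and 825 to 1021 in 0.4% salt. As for Oxsr1, the HS_SCR libraries were the highest 3 and HS_DT and 0.4% salt overlapped. These loci share the libraries and their scaling with Oxsr1, and the part of library composition in the Oxsr1 difference was not tested. Taking out each library's dependence on locus width, a setting chosen after seeing the data, gave a change of 0.41 for Oxsr1 between HS_SCR and 0.4% salt. The planned median-ratio rescaling and quantile normalization each gave 0.30 (limma adjusted p = 0.0288 and 0.0393), below the 0.33 of the values as deposited.

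Stk39 encodes SPAK, the kinase best known for activating NCC, of which mouse kidney also makes shortened forms that the locus value sums with the full one (chromosome 3, 60973439 to 61244535). It had 32.1, 31.9 and 27.7 FPKM in HS_DT, 35.2, 32.9 and 33.4 FPKM in HS_SCR, and 39.2, 39.2 and 32.7 FPKM in 0.4% salt. All HS_DT libraries were below all HS_SCR and all 0.4% salt libraries, while HS_SCR and 0.4% salt overlapped. HS_DT differed from 0.4% salt by -0.27 ± 0.10 on the log2 scale (95% interval -0.49 to -0.05) and was not called (limma adjusted p = 0.565, exact permutation p = 0.1). The other differences were -0.15 ± 0.10 for HS_DT minus HS_SCR (limma adjusted p = 0.444) and -0.12 ± 0.10 for HS_SCR minus 0.4% salt (limma adjusted p = 0.415). Within the higher rat series Stk39 was 27.7 FPKM in the HS_DT rat, 33.4 in the HS_SCR rat and 32.7 to 39.2 in 0.4% salt.

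Neither comparison of HS_DT called a member in the main fit. Of all loci, 0.00697% were called between HS_DT and HS_SCR and 0% between HS_DT and 0.4% salt, with 2732 and 1074 loci at an unadjusted p under 0.05. At an unadjusted p under 0.05 in limma there was 1 member in each, Oxsr1 in the first and Stk39 in the second. FPKM ranges did not overlap for 2 of 6 members between HS_DT and HS_SCR (Stk39 and Oxsr1), against 21.6% of all loci, and for 2 of 6 between HS_DT and 0.4% salt (Wnk1 and Stk39), against 23.8% of all loci. Between HS_SCR and 0.4% salt 1 of 6 did not overlap, against 33.5% of all loci. Counts over 6 members are too small to read more from these shares. The median log2 change of the members was -0.09 for HS_DT minus HS_SCR, -0.01 for HS_DT minus 0.4% salt and 0.02 for HS_SCR minus 0.4% salt, beside 0.00, 0.01 and 0.02 over all loci.

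**Figure D2:**
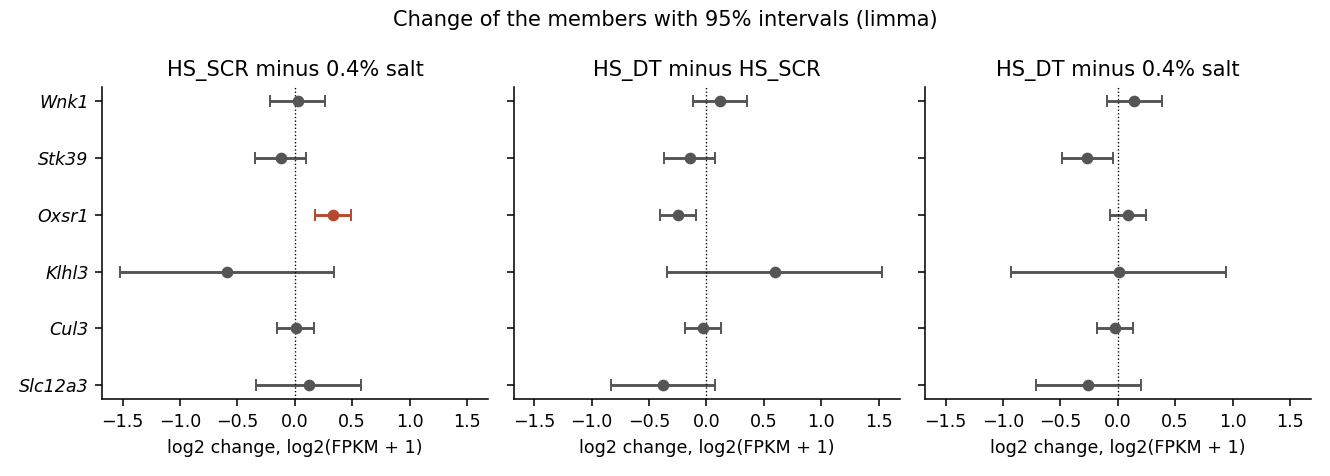
Log2 change of log2(FPKM + 1) (x axis) of each member with its 95% interval from limma, in the 3 comparisons; red marks the change called at an adjusted p under 0.05. Oxsr1 between HS_SCR and 0.4% salt (0.33) is the red point, and the interval of Klhl3 is the widest in all 3 panels.

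The balance of the paired kinases in both high-salt groups lay below that of 0.4% salt without overlap, at the smallest p that the design allows. The ratio of Stk39 to Oxsr1 was 1.46, 1.36 and 1.20 in HS_DT, 1.30, 1.20 and 1.22 in HS_SCR and 1.74, 1.88 and 1.56 in 0.4% salt. No high-salt library reached the lowest 0.4% salt ratio. The mean was 1.34 ± 0.13 in HS_DT and 1.24 ± 0.05 in HS_SCR, against 1.73 ± 0.16 in 0.4% salt (SD, n = 3 each). HS_DT was at 0.776 and HS_SCR at 0.722 of the 0.4% salt ratio, each with an exact permutation p of 0.1 (0.225 adjusted over the 9 ratio tests). HS_DT and HS_SCR overlapped (log2 difference 0.11, exact permutation p = 0.4). Within the higher rat number series the ratio was 1.20 in the HS_DT rat and 1.22 in the HS_SCR rat, again below 1.56 to 1.88 in 0.4% salt. Both comparisons share the 0.4% salt libraries. Against 0.4% salt, ranges did not overlap for 23.8% of single loci in HS_DT and 33.5% in HS_SCR, and no such share was computed for ratios. The 2 genes moved differently: Oxsr1 differed from 0.4% salt by 0.33 in HS_SCR and 0.09 in HS_DT, and Stk39 by -0.12 and -0.27.

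**Figure D3:**
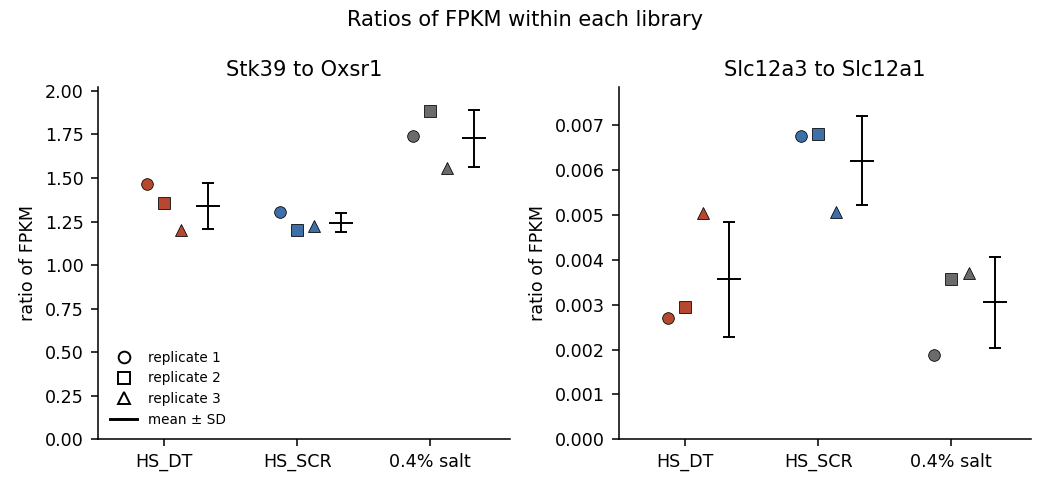
Ratio of FPKM (y axis, from 0) of Stk39 to Oxsr1 and of Slc12a3 to Slc12a1 in each library, with the mean ± SD of n = 3. The 0.4% salt libraries lie highest for the kinases (1.56 to 1.88), and the HS_SCR libraries lie highest for the cotransporters (0.00506 to 0.00680).

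The promoter windows of both kinases and of Slc12a3 are printed because the GapmeRs were aimed at enzymes that write and oxidise methyl groups at CpG sites. Windows run from 250 bases before to 50 bases after the gene start (RefSeq, GRCr8), 5′ to 3′ on the gene's strand, with each CpG in capitals. No methylation was measured in these libraries.
Stk39 (GRCr8, chr3:73586930-73587229, minus strand): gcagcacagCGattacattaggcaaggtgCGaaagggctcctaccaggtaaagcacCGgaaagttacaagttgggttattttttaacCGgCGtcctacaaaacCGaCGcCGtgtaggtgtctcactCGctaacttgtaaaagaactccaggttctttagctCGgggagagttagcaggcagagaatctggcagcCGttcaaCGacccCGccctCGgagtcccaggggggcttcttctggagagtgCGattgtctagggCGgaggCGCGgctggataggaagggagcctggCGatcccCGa
Oxsr1 (GRCr8, chr8:127939701-127940000, minus strand): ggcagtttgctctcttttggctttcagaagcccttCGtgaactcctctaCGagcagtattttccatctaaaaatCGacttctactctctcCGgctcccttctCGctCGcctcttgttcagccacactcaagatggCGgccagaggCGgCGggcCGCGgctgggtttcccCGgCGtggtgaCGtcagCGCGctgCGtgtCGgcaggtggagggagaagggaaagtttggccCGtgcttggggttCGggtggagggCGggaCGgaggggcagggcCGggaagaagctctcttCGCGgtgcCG
Slc12a3 (GRCr8, chr19:10675001-10675300, minus strand): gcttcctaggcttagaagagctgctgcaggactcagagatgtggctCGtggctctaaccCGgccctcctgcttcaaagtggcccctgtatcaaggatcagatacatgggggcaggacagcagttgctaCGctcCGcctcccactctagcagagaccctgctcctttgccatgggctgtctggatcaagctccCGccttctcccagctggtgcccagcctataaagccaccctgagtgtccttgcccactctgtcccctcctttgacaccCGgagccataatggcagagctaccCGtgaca

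A window was found for 5 of the 6 measured members, with none for Cul3. Stk39 held 20 CpGs and Oxsr1 26, against 7 in Slc12a3, which is the median of the 33469 windows of this length. Wnk1 held 36 and Klhl3 15. The TATAAA motif, searched on both strands, was found in Slc12a3 and in none of the other 4, and 14.2% of all windows hold it. GGGCGG, which itself contains a CpG, was found on either strand in Stk39 and Oxsr1 and in 33.1% of all windows. CCAAT was found on either strand in Wnk1 and Klhl3 and in 37.5% of all windows.

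Wnk1 encodes the upstream kinase, and in the distal nephron an internal start gives a short kidney form without the kinase domain (chromosome 4, 219537464 to 219662983). The table sums 4 transcription start entries at this locus, so the forms cannot be told apart. Wnk1 had 31.8, 34.2 and 30.6 FPKM in HS_DT, 32.6, 31.5 and 25.1 FPKM in HS_SCR, and 28.2, 29.6 and 29.3 FPKM in 0.4% salt. All HS_DT libraries lay above all 0.4% salt libraries, and HS_SCR spanned both. The log2 difference of HS_DT minus 0.4% salt was 0.14 ± 0.10 (95% interval -0.09 to 0.38; limma adjusted p = 0.797, exact permutation p = 0.1). Fitting the rat series as a factor gave -0.01 for that difference. HS_DT minus HS_SCR was 0.12 ± 0.10 (limma adjusted p = 0.565) and HS_SCR minus 0.4% salt was 0.03 ± 0.10 (limma adjusted p = 0.891).

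Cul3, the scaffold that holds KLHL3 and the RING protein together, was the steadiest member (chromosome 9, 85794366 to 85869690). It had 28.4, 28.4 and 28.1 FPKM in HS_DT, 30.6, 28.5 and 27.6 FPKM in HS_SCR, and 29.3, 29.3 and 27.7 FPKM in 0.4% salt. All 3 groups overlapped, and over the 9 libraries its coefficient of variation was 3.29%, beside a median of 16.99% over all tested loci. The 95% intervals of its log2 change were -0.19 to 0.13 for HS_DT minus HS_SCR, -0.18 to 0.14 for HS_DT minus 0.4% salt and -0.15 to 0.17 for HS_SCR minus 0.4% salt. The coefficient was 8.83% for Wnk1, 10.8% for Stk39 and 11.3% for Oxsr1, all below that median, and 26.0% for Slc12a3 and 47.0% for Klhl3, both above it. That median takes in loci of every level, and none matched for level was computed. By mean FPKM, Slc12a3 and Klhl3 stood at percentiles 14.8 and 15.8 of the tested loci, and the other members at 72.9 to 80.9.

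Klhl3, the adaptor that picks WNK kinases for degradation, was far less abundant than Cul3 and differed most among libraries (chromosome 17, 9127161 to 9226414). It had 2.17, 3.22 and 3.57 FPKM in HS_DT, 1.00, 0.579 and 4.60 FPKM in HS_SCR, and 2.92, 3.10 and 2.75 FPKM in 0.4% salt. HS_SCR held both the lowest values and the highest, so the groups overlapped. With all libraries the log2 change was 0.60 ± 0.41 for HS_DT minus HS_SCR (95% interval -0.34 to 1.53; limma adjusted p = 0.457, exact permutation p = 0.4) and -0.59 ± 0.41 for HS_SCR minus 0.4% salt (-1.52 to 0.35; limma adjusted p = 0.351, exact permutation p = 0.4). Between HS_DT and 0.4% salt it was 0.01 ± 0.41 (limma adjusted p = 0.998).

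Without HS_SCR replicate 3, Klhl3 was called higher in HS_DT than in HS_SCR (log2 change 1.15, limma adjusted p = 0.0137) and lower in HS_SCR than in 0.4% salt (-1.14, limma adjusted p = 0.00395). The same fit called 2300 loci (16% of all) in the first comparison and 5188 (36.2%) in the second, against 1 and 1874 with all libraries, so calls were far more common in it overall. It leaves HS_SCR with rats of the lower number series and 0.4% salt with rats of the higher, so in the second of these, group cannot be told apart from series. With the series as a factor and all 9 libraries, HS_SCR minus 0.4% salt was 0.07 (limma adjusted p = 0.910). Within the lower series Klhl3 was 2.17 and 3.22 FPKM in HS_DT against 1.00 and 0.579 in HS_SCR, and within the higher it was 3.57 in the HS_DT rat, 4.60 in the HS_SCR rat and 2.75 to 3.10 in 0.4% salt. The direction between the high-salt groups thus differed between the series, a difference that was not tested, with 1 rat a group in the higher.

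A second row of the table carries the name Klhl3 at the same position with other transcription start entries, and its strand is not given in the sources used here. It had 1.75, 1.69 and 1.62 FPKM in HS_DT, 1.21, 1.43 and 0.859 FPKM in HS_SCR, and 1.74, 1.37 and 1.47 FPKM in 0.4% salt. In HS_SCR replicate 3 this row was at its lowest while the row described above was at its highest. All HS_DT libraries lay above all HS_SCR libraries here (log2 change 0.32 ± 0.13, limma adjusted p = 0.244, exact permutation p = 0.1). How fragments were divided between the rows is unknown, so the levels of Klhl3 are uncertain.

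**Figure D4:**
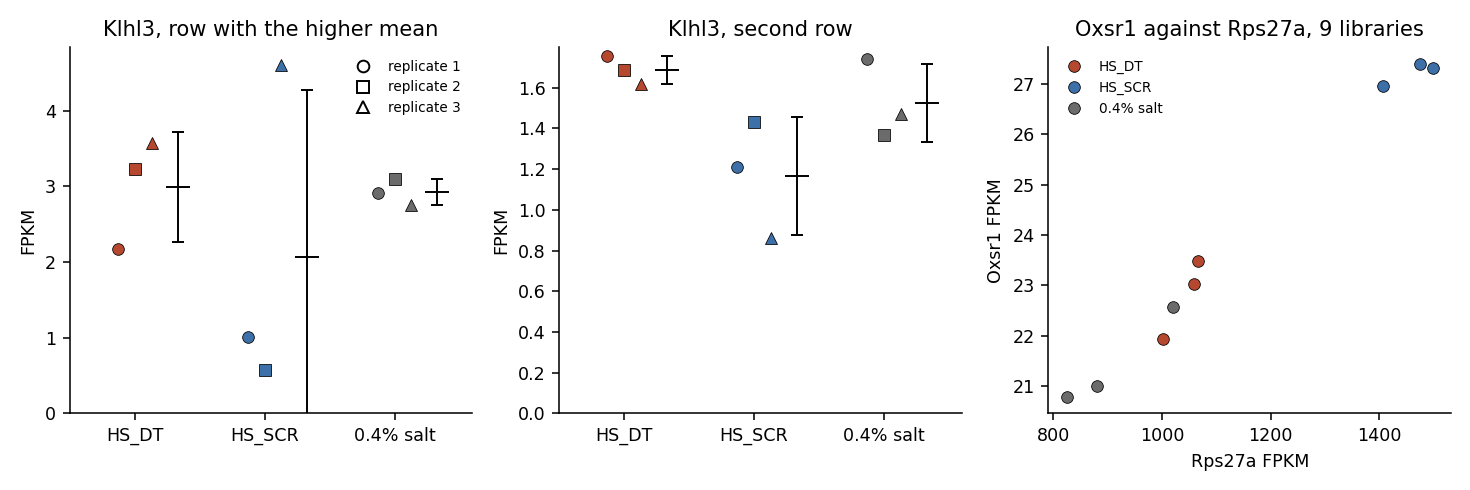
FPKM (y axis, from 0) of both rows named Klhl3 in each library with the mean ± SD of n = 3 (the lower bar in HS_SCR of the first row runs past 0), and Oxsr1 FPKM against Rps27a FPKM over the 9 libraries (neither axis from 0). HS_SCR replicate 3 is the highest point of the first row (4.60) and the lowest of the second (0.859), and in the third panel the HS_SCR libraries lie apart at 1406 to 1498 FPKM of Rps27a.

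Slc12a3 encodes NCC, the target of the pathway in the distal convoluted tubule, a cortical segment (chromosome 19, 11084195 to 11122657). It had 1.53, 1.81 and 2.77 FPKM in HS_DT, 3.05, 3.22 and 2.44 FPKM in HS_SCR, and 1.84, 3.30 and 2.74 FPKM in 0.4% salt. All 3 groups overlapped. HS_DT minus HS_SCR was -0.38 ± 0.20 (95% interval -0.83 to 0.08; limma adjusted p = 0.343, exact permutation p = 0.2), HS_DT minus 0.4% salt was -0.26 ± 0.20 (limma adjusted p = 0.815), and HS_SCR minus 0.4% salt was 0.12 ± 0.20 (limma adjusted p = 0.704). Of 9 markers of the distal convoluted tubule, 6 reached a mean of 1 FPKM and none was called in any comparison by limma, with 1 at an unadjusted p under 0.05 for HS_SCR minus 0.4% salt and 0 in the others. Their summed level was 17.9 to 27.0 FPKM in HS_DT, 14.7 to 44.7 in HS_SCR and 23.9 to 30.15 in 0.4% salt. The 44.7 was HS_SCR replicate 3, the library with the highest Klhl3, and the other HS_SCR libraries were at 14.7 and 22.6. In that library 4 of the 9 markers had their highest level of all libraries, Trpv5 at 7.21 FPKM, Calb1 at 2.86, Tmem52b at 14.7 and Slc8a1 at 11.7, while Slc12a3 was at its lowest in HS_SCR. The other markers did not peak there, with Trpm6 at 3.22 FPKM, Cnnm2 at 4.55, Emx1 at 0.255, Sall3 at 0.0631 and Pvalb at 0. The part of the distal convoluted tubule markers in the Klhl3 values was not tested. Pvalb, which marks the early part of this segment, was listed at 0 in 8 libraries and at 0.0475 FPKM in HS_SCR replicate 1. In whole tissue, fewer cells of a type and less RNA per cell cannot be told apart.

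Against the cotransporter of the thick ascending limb, Slc12a3 was scarce. Slc12a1, taken from the higher of its 2 rows, had 564, 614 and 550 FPKM in HS_DT, 451, 473 and 482 FPKM in HS_SCR, and 974.7, 926 and 740 FPKM in 0.4% salt. The ratio of Slc12a3 to Slc12a1 was 0.00271, 0.00295 and 0.00503 in HS_DT, 0.00676, 0.00680 and 0.00506 in HS_SCR, and 0.00189, 0.00356 and 0.00370 in 0.4% salt. Every HS_SCR ratio was above every ratio of the other groups, although HS_DT replicate 3 (0.00503) came close to HS_SCR replicate 3 (0.00506). HS_SCR was at 2.11 times the ratio of 0.4% salt (exact permutation p = 0.1, 0.225 adjusted over 9 tests) and HS_DT at 0.557 times that of HS_SCR (exact permutation p = 0.1, adjusted 0.225). HS_DT overlapped 0.4% salt (exact permutation p = 0.6). In the fit of FPKM + 1, HS_SCR was at 1.09 times the 0.4% salt level for Slc12a3, not called, and at 0.537 times for Slc12a1, called. HS_DT was at 0.769 times the HS_SCR level for Slc12a3 and at 1.23 times for Slc12a1, neither called.

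Around the members, 38 further genes of the pathway were listed, of which 35 had a row and 33 were tested. Between HS_SCR and 0.4% salt 1 of the 33 rose, 5 fell and 27 were not called, or 6 of 33 beside 13.1% of all loci, with a median log2 change of -0.16 (0.02 over all loci). Between HS_DT and HS_SCR none was called by limma (9 at an unadjusted p under 0.05, beside 2732 of 14338 loci, median 0.05). None was called between HS_DT and 0.4% salt (3 at an unadjusted p under 0.05, beside 1074 of 14338 loci, median -0.11). The calls between HS_SCR and 0.4% salt numbered 3 without 0.4% salt replicate 1 (3.12% of all loci called), 3 without 0.4% salt replicate 2 (2.42% of all loci) and 10 without HS_SCR replicate 3 (36.2% of all loci). Between HS_DT and HS_SCR the count of 0 also varied with the setting. With all 9 libraries, library weights called 5 of the 33 (10.4% of all loci) and the rat series as a factor 1 (2.94%). Without HS_SCR replicate 3, 7 of the 33 were called, beside 16% of all loci. Of the genes named below, that fit called Tsc22d1 (-0.59, limma adjusted p = 0.0203) and Cops5 (-0.22, 0.0467) lower in HS_DT than in HS_SCR, and Sorl1 (0.64, 0.0168), Kcnj10 (0.81, 0.0453) and Casr (1.051, 0.0431) higher.

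Among other WNK kinases and partners of WNK condensates, Wnk2 and Wnk3 were at or below 0.237 FPKM in every library, so that Wnk1 was the most abundant of the WNK kinases measured. Tsc22d1, a partner of the WNK-binding pseudokinase NRBP1, averaged 661 ± 46.5 FPKM in HS_DT and 919 ± 140 in HS_SCR, against 430 ± 56.2 in 0.4% salt (SD, n = 3 each). The groups did not overlap, and Tsc22d1 rose in HS_SCR against 0.4% salt (1.09 ± 0.14, limma adjusted p = 0.00638). HS_DT minus 0.4% salt was 0.62 ± 0.14 (limma adjusted p = 0.333) and HS_DT minus HS_SCR -0.47 ± 0.14 (limma adjusted p = 0.142). Nrbp1 averaged 29.3 ± 1.64 FPKM in HS_DT, 32.96 ± 2.21 in HS_SCR and 28.0 ± 2.599 in 0.4% salt and was not called. Of the 4 tested genes of this group, 1 rose and 3 were not called between HS_SCR and 0.4% salt.

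Of the 7 tested adaptors and cotransporters, 2 fell and 5 were not called between HS_SCR and 0.4% salt. Slc12a1, which OSR1 and SPAK activate, fell by 0.90 on the log2 scale (limma adjusted p = 0.00638), and its HS_DT values lay between the other groups without overlap (HS_DT minus HS_SCR 0.30 ± 0.11, limma adjusted p = 0.216; HS_DT minus 0.4% salt -0.60 ± 0.11, limma adjusted p = 0.270). Sorl1, a sorting receptor that in mice bears on SPAK processing and NKCC2 phosphorylation, averaged 41.3 ± 1.65 FPKM in HS_DT, 29.0 ± 5.03 in HS_SCR and 50.03 ± 7.10 in 0.4% salt. HS_SCR lay lower than 0.4% salt by a called -0.77 ± 0.14 (limma adjusted p = 0.0139). That call was lost without 0.4% salt replicate 1 (limma adjusted p = 0.0597) or replicate 2 (0.0647). So it was in the fit of the 2 groups alone (0.0555) and with the proximal tubule score (0.216). Cab39 and Cab39l encode MO25 scaffolds that activate both kinases. Cab39l averaged 15.8 ± 1.00 FPKM in HS_DT and 18.5 ± 1.37 in 0.4% salt, without overlap and not called (limma adjusted p = 0.698).

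None of the 6 tested cullin-RING ligase parts was called in any comparison by limma, with 1 at an unadjusted p under 0.05 between HS_DT and HS_SCR, 0 between HS_DT and 0.4% salt and 2 between HS_SCR and 0.4% salt. Cops5, the subunit of the COP9 signalosome that removes NEDD8 from cullins, averaged 40.9 ± 0.887 FPKM in HS_DT, 48.2 ± 0.761 in HS_SCR and 42.1 ± 1.95 in 0.4% salt. Like Oxsr1, all its HS_SCR libraries lay above all others (HS_SCR minus 0.4% salt 0.19 ± 0.07, limma adjusted p = 0.0880; HS_DT minus HS_SCR -0.23 ± 0.07, limma adjusted p = 0.126). Dcun1d1, which promotes neddylation, averaged 13.3 ± 0.434 FPKM in HS_DT, 12.5 ± 0.573 in HS_SCR and 14.4 ± 0.525 in 0.4% salt. Nedd8 averaged 117 ± 5.03 FPKM in HS_DT, 134 ± 30.4 in HS_SCR and 105 ± 5.71 in 0.4% salt, and Cand1, which exchanges substrate adaptors, 22.9 ± 0.509, 21.1 ± 1.71 and 23.5 ± 0.933 FPKM in the same order.

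Of 16 tested genes of upstream signals and chloride sensing, 3 fell and 13 were not called between HS_SCR and 0.4% salt. Kcnj10, a basolateral potassium channel that sets the chloride seen by WNK kinases, averaged 9.25 ± 1.58 FPKM in HS_DT, 3.81 ± 1.93 in HS_SCR and 13.6 ± 3.20 in 0.4% salt. Its fall in HS_SCR was called (-1.67 ± 0.31 relative to 0.4% salt, limma adjusted p = 0.0150), yet not without 0.4% salt replicate 1 (limma adjusted p = 0.0638) or replicate 2 (0.0677). Nor was it called in the fit of the 2 groups alone (limma adjusted p = 0.0545) or with the proximal tubule score (0.255). Casr, the calcium-sensing receptor, averaged 10.2 ± 1.58 FPKM in HS_DT, 5.12 ± 1.90 in HS_SCR and 17.1 ± 3.61 in 0.4% salt, a called fall in HS_SCR of -1.60 ± 0.25 relative to 0.4% salt (limma adjusted p = 0.00941). Ppp3cb, a catalytic subunit of calcineurin, the phosphatase that acts on NCC and KLHL3, averaged 22.7 ± 1.04 FPKM in HS_DT, 18.9 ± 0.581 in HS_SCR and 23.5 ± 1.19 in 0.4% salt. HS_SCR was called lower than 0.4% salt by -0.30 ± 0.07 (limma adjusted p = 0.0347). That call was lost without each of the 3 libraries of 0.4% salt, HS_SCR replicate 2 or HS_DT replicate 1 or 2 (limma adjusted p from 0.0524 to 0.128). Other losses were in the fit of the 2 groups alone (limma adjusted p = 0.0957), with the rat series (0.0913), the replicate block (0.0565) and the proximal tubule score (0.433).

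Markers of several other cell types differed between HS_SCR and 0.4% salt. Of 68 tested markers of all lists, 25 were called there, beside 13.1% of all loci (8.2% higher and 4.88% lower). By limma none was called between HS_DT and HS_SCR, with 20 at an unadjusted p under 0.05, beside 2732 of 14338 loci. Nor was any called between HS_DT and 0.4% salt, with 17 at an unadjusted p under 0.05, beside 1074 of 14338 loci. The summed level of the 14 proximal tubule markers in the table was 263 to 1191 FPKM in HS_DT, 40.6 to 357 in HS_SCR and 712 to 1903 in 0.4% salt, and 5 of 12 tested fell between HS_SCR and 0.4% salt. For the 12 thick ascending limb markers it was 2639 to 3603, 1395 to 3367 and 2954 to 4575 FPKM in the same order of groups, with 4 called lower and 1 higher between HS_SCR and 0.4% salt. HS_SCR replicate 3 held the 1395, and the other HS_SCR libraries were at 2580 and 3367 FPKM. For the 9 macrophage and myeloid markers it was 2440 to 2708, 2736 to 3790 and 1498 to 1714 FPKM, with 7 called higher. Erythroid markers summed to 1900 to 2601, 1410 to 8797 and 584 to 855 FPKM, with 4 of 5 called higher. The 1410 was again HS_SCR replicate 3, below every HS_DT library, and the other HS_SCR libraries were at 8797 and 5798 FPKM. The 8 principal cell markers summed to 902 to 1543, 1260 to 1845 and 732 to 1462 FPKM, with none called by limma (2 at an unadjusted p under 0.05 between HS_SCR and 0.4% salt) and the groups overlapping. Of the remaining lists, 2 of 7 endothelial markers rose, 1 of 4 podocyte markers rose and 1 fell, and 0 of 6 intercalated cell markers were called between HS_SCR and 0.4% salt (1 at an unadjusted p under 0.05). Slc12a1 and Casr are themselves in the list of the thick ascending limb. With the proximal tubule score, the mean log2(FPKM + 1) of the 12 tested markers, in the model, the change of Oxsr1 was 0.33 (limma adjusted p = 0.302). Of 14338 loci 1 was called in that fit. The score was 5.05 to 6.53 in 0.4% salt and 1.69 to 4.07 in HS_SCR, without overlap, so the fit cannot separate it from group. The part of the other cell types in these results was not tested.

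**Figure D5:**
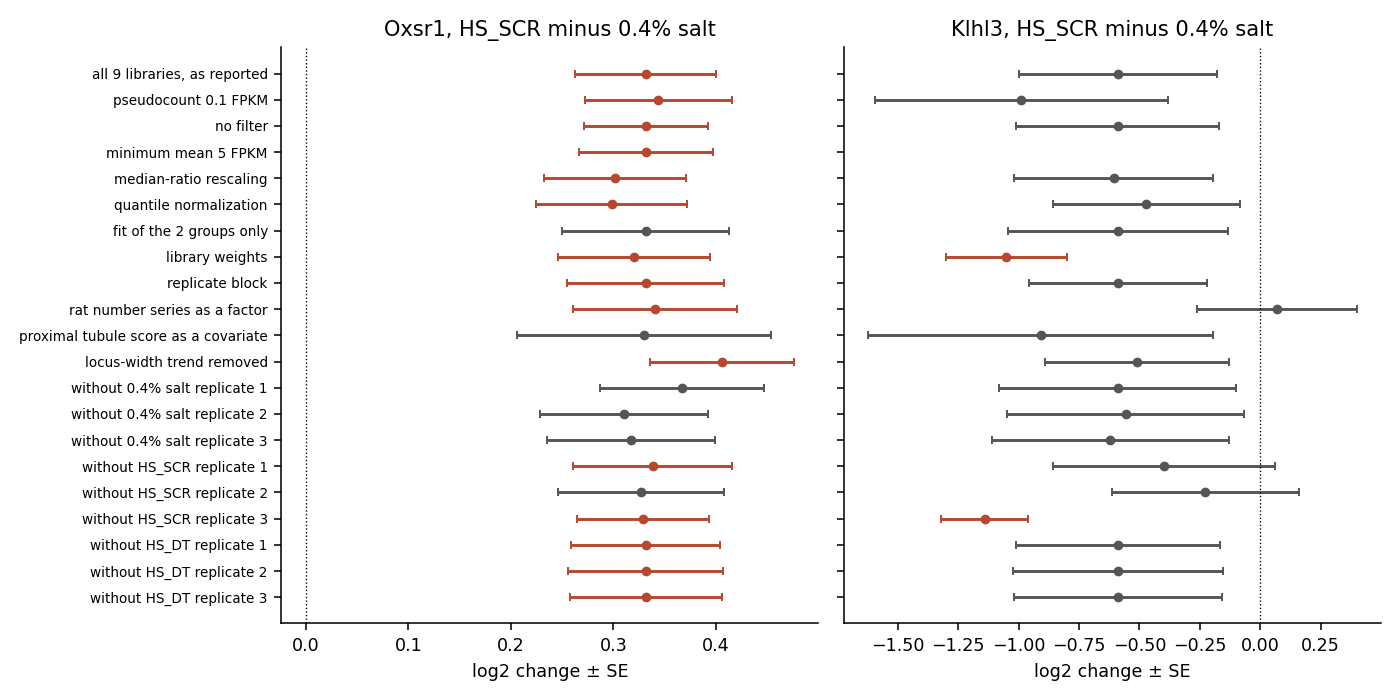
Log2 change ± SE (x axis) of Oxsr1 and Klhl3 for HS_SCR minus 0.4% salt, as reported (top) and under each alternative; red marks an adjusted p under 0.05. Oxsr1 stays between 0.30 and 0.41, while Klhl3 runs from -1.14 without HS_SCR replicate 3 to 0.07 with rat series fitted as a factor.

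Each of the other members had different loci as its nearest in pattern over the 9 libraries. Wnk1 was most like Slamf9 (Pearson r 0.955), Naa16 (0.952) and Il2rg (0.949). Stk39 was most like Sh3bp4 (0.936), Mras (0.913) and ST7 (0.907), and Cul3 most like Pfkp (0.945), Atp6v1e1 (0.928) and Kank1 (0.911). Klhl3 was most like Cdk13 (0.988), Rprd2 (0.988) and Rnft1 (0.986), and Slc12a3 most like Rogdi (0.935), Gnl1 (0.902) and Erp44 (0.894). These are the highest of 9273 or 9274 correlations for each member and describe these libraries only.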

How the data were processed

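The authors deposited FPKM values per locus for 9 libraries. Per the submitters' processing notes, Cufflinks 2.2.1, Trim Galore 0.2.5 and build rn5 were used. What aligned the reads, which annotation was taken and how libraries were scaled is not given in the sources used here. Columns were matched to samples by rat number; 1 further column repeats HS_DT replicate 3 and was not used. Fragment numbers are unknown, so no counting interval is given.

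Values were analysed as log2(FPKM + 1) at loci whose mean reached 1 FPKM, in 1 fit of the 3 groups with limma 3.58.1 (trend on the mean level, R 4.3.3; 6 residual degrees of freedom, 8.54 after moderation), two-sided, with Benjamini-Hochberg adjustment over 14338 loci; an adjusted p under 0.05 was called. Fold changes understate those of low genes. The procedure was tested on simulated data with independent noise. That simulation had no deviating library and no rat series, so it does not cover either. Exact permutation tests were two-sided over 3 against 3 libraries; 9 of 12 ratio tests could be made, since Wnk4 was not analysed here. Named genes were the members, called genes of each pathway group (up to 6, or the 2 with the smallest p) and the 3 loci most like each member. Members and lists were chosen with earlier results of these data known.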

Additional observations from a re-analysis of the deposited data

How the results depend on the processing

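Depth is unknown, so counting error could not be separated from other spread, and 3 rats a group limit every test. Of 20 alternatives, 10 were planned changes of processing or model, and 9, also planned, left out 1 library each. The remaining 1, removing the trend on locus width, was chosen after seeing the data. Of 354 member values, 319 kept their direction and side of the threshold, as did 443 of 480 values of named pathway genes. These totals include settings that cannot alter a log2 change, such as a change of filter or leaving out a library of the group not compared.

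Between HS_SCR and 0.4% salt, with 1 member, 6 pathway genes and 1874 loci called, the fit of the 2 groups alone called 0, 3 and 466, library weights 2, 10 and 4019, and the proximal tubule covariate 0, 0 and 1. Leaving out 1 library gave 0 to 2, 3 to 10 and 347 to 5188. Between HS_DT and HS_SCR, with 0, 0 and 1 called, library weights called 1, 5 and 1496, the rat number series called 1 pathway gene and 422 loci, a minimum of 5 FPKM called 154 loci and no filter 3. Quantile normalization, the replicate block, the proximal tubule covariate and removal of the width trend each called 0 loci there. Leaving out 1 library gave 0 to 2, 0 to 7 and 0 to 2300. Between HS_DT and 0.4% salt, with none called, library weights called 2, 4 and 1805, a minimum of 5 FPKM called 2 loci and the 2 groups alone 1. Leaving out 1 library gave 0 members, 0 pathway genes and 0 to 6 loci. The cause was not tested.

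Library weights called Klhl3 between HS_SCR and 0.4% salt (-1.05) and between HS_DT and HS_SCR (1.11), and Wnk1 (0.21) and Stk39 (-0.25) between HS_DT and 0.4% salt. Without HS_SCR replicate 3, Oxsr1 was called between HS_DT and HS_SCR (-0.24, limma adjusted p = 0.0433), in a fit that called 2300 loci (16%) there and 5188 (36.2%) between HS_SCR and 0.4% salt.

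Reversals concerned changes that were not called. For HS_SCR minus 0.4% salt, Wnk1 was -0.00549 with median-ratio rescaling, -0.0346 with quantile normalization and -0.124 with the series, Cul3 was -0.0238, -0.0485 and -0.0290 under the same settings and -0.0149 with the proximal tubule covariate, and Klhl3 was 0.0693 with the series. For HS_DT minus HS_SCR, Cul3 was 0.0164 with quantile normalization. For HS_DT minus 0.4% salt, the series gave -0.00512 for Wnk1 and -0.0784 for Nedd8, Klhl3 was -0.00156 with median-ratio rescaling and -0.11 with the covariate, and Cul3 was 0.00482 with the width trend removed. Leaving out 1 library moved Wnk1 from -0.0430 to 0.138, Cul3 from -0.0333 to 0.0376 and Slc12a3 from -0.0441 to 0.255 for HS_SCR minus 0.4% salt, Cul3 from -0.0607 to 0.0102 for HS_DT minus HS_SCR, and Klhl3 from -0.10 to 0.16 and Nrbp1 from -0.00921 to 0.111 for HS_DT minus 0.4% salt.

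The labels do not say that replicate numbers pair the libraries, and the values do not settle it. Deviations correlated over 0.1 in 5 of 9 same-number pairs (from -0.08 to 0.26, against -0.31 to 0.24 between different numbers). Of the 9 libraries, 5 correlated best with their own number. With the replicate block, 1 member, 8 pathway genes and 1906 loci were called between HS_SCR and 0.4% salt, and Ppp3cb was not (limma adjusted p = 0.0565).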

Other observations

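Among the upstream regulators, HS_SCR replicate 3 stood apart at Sgk1, the aldosterone-induced kinase that acts on WNK signalling, a gene singled out after its values were seen. Sgk1 had 128, 145 and 81.9 FPKM in HS_DT, 120, 134 and 560 FPKM in HS_SCR, and 174, 161 and 144 FPKM in 0.4% salt. The same library held the highest value of the first Klhl3 row and the lowest of Wnk1 among the 9 libraries.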
